A study of Mus musculus with 18 samples.

Results

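The drug by Atf4 knockout interaction asks, gene by gene, whether halofuginone moved the mRNA by a different amount in CD8+ T cells without Atf4 than in control cells. It was computed as the log2 change with halofuginone in Atf4 knockout cells minus the log2 change with halofuginone in Rosa26 cells, and is called the difference of responses below; a negative value is a lower response in the knockout. It rests on 12 of the 18 libraries of the series, chosen by their labels alone, with 3 libraries in each of 4 groups: Rosa26 cells cultured without or with halofuginone, and Atf4 knockout cells cultured without or with it, with a culture of 24 hours. All 4 groups were primary mouse CD8+ T cells from spleen and lymph node that had been targeted with CRISPR/Cas9. Rosa26 is a locus that is commonly cut as a neutral control, so the control cells also went through editing. The labels name no strain, age, guide or dose, and they leave it unsaid if the 3 libraries of a group are different mice, different cultures or neither, so a p-value here reflects the scatter among these libraries, which may be technical. The other 6 libraries, of Cebpg knockout cells without and with halofuginone, entered the same fit and are used in 1 comparison at the end.

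Halofuginone blocks prolyl-tRNA synthetase, so that uncharged tRNA builds up as it does when an amino acid is lacking. The kinase GCN2 senses uncharged tRNA and phosphorylates the initiation factor eIF2, which slows translation of most mRNAs and raises that of Atf4. The ATF4 protein then binds DNA as a dimer with a C/EBP family member such as C/EBPγ, the product of Cebpg, at composite elements in front of genes for amino acid synthesis, amino acid import and tRNA charging. This pathway is known as the integrated stress response, and growing T cells use the same genes to supply protein and nucleotide synthesis.

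The letters TGATGNAA are the core that C/EBP-ATF composite elements share. They were searched on both strands of RefSeq promoter windows of build GRCm38.p6, which run from 250 bases before to 50 bases after the start of a gene, and windows were found for 9801 of the 14695 measured genes. The stretches below show the core, in capitals, in 6 genes whose response was lower in Atf4 knockout cells and in Chac1 and Atf3, stress genes whose difference did not pass the threshold, each written on the strand on which it reads TGATGNAA. Those of Asns (chr6:7693210-7693248), Pck2 (chr14:55540147-55540186), Aars1 (chr8:111033714-111033753), Gars1 (chr6:55037955-55037994) and Chac1 (chr2:119351033-119351072) are written on the minus strand. Those of Got1 (chr19:43524684-43524723), Tars1 (chr15:11399659-11399689) and Atf3 (chr1:191183420-191183459) are written on the plus strand.
Asns: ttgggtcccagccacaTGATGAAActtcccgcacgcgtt
Pck2: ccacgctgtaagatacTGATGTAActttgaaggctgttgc
Aars1: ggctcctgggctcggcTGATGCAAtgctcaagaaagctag
Gars1: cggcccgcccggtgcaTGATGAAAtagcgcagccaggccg
Got1: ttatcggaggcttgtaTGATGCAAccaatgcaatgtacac
Tars1: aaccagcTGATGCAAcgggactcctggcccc
Chac1: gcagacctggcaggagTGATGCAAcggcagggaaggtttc
Atf3: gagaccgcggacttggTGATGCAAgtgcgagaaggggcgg
A gene counted as holding the core if any of its windows held it, and 265 of the 9801 measured genes with a window did (2.7%). Among genes with a window, it was in 25 of 457 with a lower response (5.47%), in 6 of 54 of those lower by at least 2-fold (11.1%), and in 8 of 271 with a higher response (2.95%). In the gene lists described below, again among genes with a window, 8 of 17 stress response regulators and effectors and 4 of 12 cytosolic aminoacyl-tRNA synthetases held it. So did 3 of 12 asparagine, proline, alanine and glutamate enzymes, 1 of 11 amino acid transporters and 0 of 14 serine and folate enzymes. Of the stress genes with it, Trib3 and Pck2 had a lower response, and Atf3, Chac1, Nupr1, Vldlr, Jdp2 and Herpud1 did not pass the threshold. Of the other members with it, Pycr1 did not pass, and Asns, Got1, Slc1a4, Aars1, Gars1, Tars1 and Yars1 had a lower response. These shares are descriptions without a test, and a window without these letters says nothing about binding elsewhere.

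The 12 libraries held 14.7 to 20.3 M counts (M stands for mega). Atf4 mRNA itself was present in every group, at 281, 267 and 256 CPM (counts per 1 M counts of the library) in the 3 untreated Rosa26 libraries and 357, 428 and 351 CPM with the drug. The knockout libraries stood at 301, 281 and 274 CPM without and 300.1, 267 and 378 CPM with the drug, and the groups with halofuginone overlapped. Its difference of responses was -0.35 ± 0.143 (adjusted p = 0.165), which did not pass the threshold here but did in 5 of 23 alternatives, among them without Atf4 knockout replicate 3 with halofuginone and without the 3 libraries described next (lowest adjusted p = 3.67e-05, highest 0.303 over the 23). Since small insertions or deletions need not lower a gene's count these levels are no check of the genotypes. Some libraries stood apart in 829 genes of unconfirmed transcripts and in the nuclear RNA Malat1. They were picked without a threshold, as the library of each halofuginone group that was lowest in both. With halofuginone, Rosa26 replicate 2 held 0.0542% of its counts in those genes and 672.3 CPM of Malat1, the lowest of its group, whose highest values were 0.225% and 2607 CPM. Atf4 knockout replicate 3 held 0.0735% and 1158 CPM, the lowest of a group that reached 0.302% and 3415 CPM. Without the drug the genotypes were apart too, at 0.1% to 0.133% in Rosa26 and 0.194% to 0.25% in Atf4 knockout libraries. The part that this plays in the results was not tested; counts of list members that move by more than 1.5 times without these libraries and Cebpg knockout replicate 3, the lowest of its group with halofuginone, are given with their value without them.

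The response to halofuginone differed between Atf4 knockout and Rosa26 cells in 943 of 14695 genes tested (6.42%) at an adjusted p under 0.05, by edgeR's quasi-likelihood test with Benjamini-Hochberg adjustment over all genes, the test behind every adjusted p here. The response was lower in the knockout in 589 genes (4.01%) and higher in 354 (2.41%). Differences of at least 2-fold were fewer, with 82 genes lower (0.558%) and 22 higher (0.15%), and the median over all genes was -0.06. The share of higher calls was 37.5%, and it was 59% with DESeq2's median-ratio size factors in edgeR, 59.4% with DESeq2 and 61.7% with a filter at 1 CPM, so neither direction can be called the more frequent. Without the 3 libraries that stood apart, 1417 genes were lower and 775 higher, among them 921 of the 943. In bulk RNA, fewer cells of a type and less RNA per cell cannot be told apart.

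Each response on its own passed the threshold in many more genes, 7008 (47.7%) in Rosa26 and 7294 (49.6%) in Atf4 knockout cells, and a lower response came about in several ways. Of the 589 genes, 111 rose in Rosa26 and did not pass the threshold in the knockout, 109 rose in both, 51 rose in Rosa26 and fell in the knockout, 132 fell in the knockout alone and 186 fell in both. Of the 354 genes with a higher response, 123 rose in the knockout alone, 123 rose in both, 28 fell in Rosa26 and rose in the knockout, 52 fell in Rosa26 alone and 28 fell in both. Here "alone" means that the other response did not pass its threshold, which does not show that it was absent. Before any drug, Atf4 knockout and Rosa26 cells already differed in 3827 genes (26%). Among the 589 genes these included 228 that were higher and 146 that were lower in the untreated knockout, and among the 354 they included 25 higher and 128 lower. All these comparisons share libraries with the difference of responses and are given as a description of it.

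**Figure D1:**
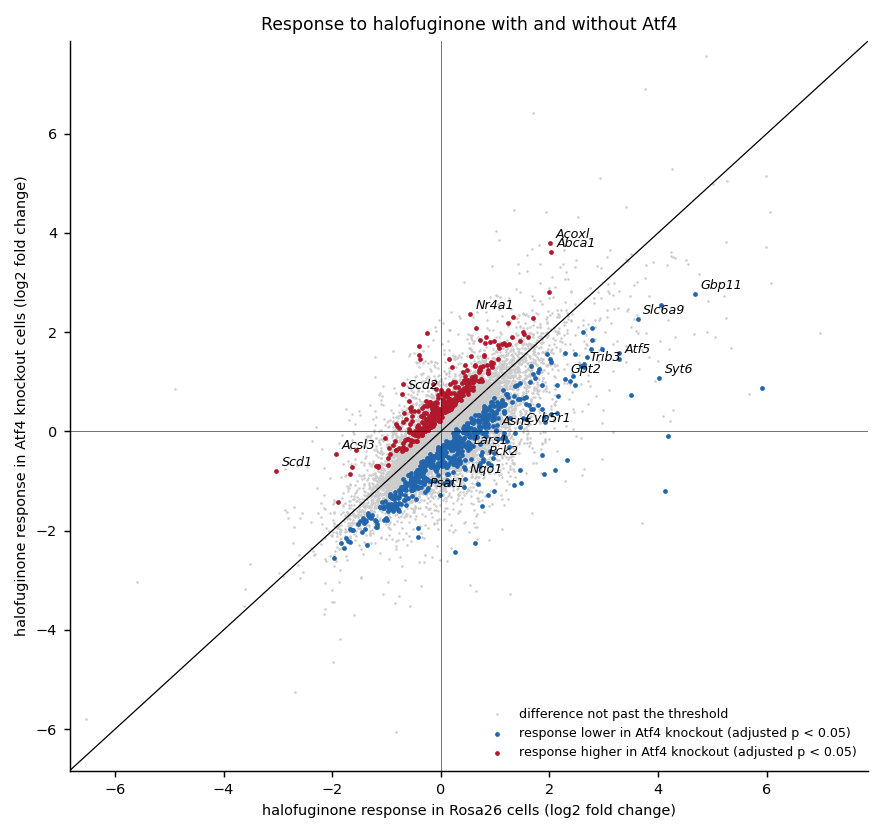
Each point is 1 of the 14695 genes, with its log2 fold change with halofuginone in Rosa26 cells on the x axis and in Atf4 knockout cells on the y axis, and the diagonal marks equal responses. Blue points (589) had a lower and red points (354) a higher response in the knockout at an adjusted p under 0.05; both kinds lie on either side of the zero lines.

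Regulators and effectors of the stress response made up the list whose median difference was the lowest, at -0.60 against -0.06 over all genes. Of 20 measured members, 7 had a lower response in Atf4 knockout cells (Atf5, Trib3, Pck2, Ddit3, Stc2, Eif4ebp1 and Sesn2) and none a higher one. Atf5, a bZIP transcription factor related to Atf4, stood at 12.1, 11.1 and 7.86 CPM in untreated Rosa26 libraries and 99.2, 115 and 86.3 CPM with halofuginone. In Atf4 knockout libraries Atf5 stood at 12.3, 12.3 and 12.7 CPM without and 31, 31 and 40.6 CPM with the drug. It rose in both genotypes from untreated levels that did not differ past the threshold, and the groups with halofuginone did not overlap: the difference of responses was -1.82 ± 0.204 (SE; adjusted p = 2.92e-05), made of a rise of 3.28 in Rosa26 and 1.46 in the knockout. Trib3, a pseudokinase that binds the kinase AKT and is a feedback regulator of the pathway, rose from 50, 52.3 and 51.6 to 309, 356 and 294 CPM in Rosa26 libraries. In the knockout Trib3 rose from 45.2, 37.7 and 41 to 102, 84.7 and 119.5 CPM, so each knockout library with the drug was under each Rosa26 library with it (-1.33 ± 0.157, adjusted p = 5.38e-05).

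Pck2, the mitochondrial PEP carboxykinase, moved in opposite directions. It stood at 30.9, 33.1 and 33.7 CPM in untreated Rosa26 libraries and 50, 59.9 and 57.3 CPM with halofuginone, but at 19.8, 17.8 and 18.4 CPM in untreated and 11.5, 11.9 and 13.9 CPM in treated Atf4 knockout libraries. It thus rose by 0.77 in one genotype and was -0.59 in the other, with no overlap between any 2 of the 4 groups (-1.36 ± 0.141, adjusted p = 9.86e-06). Sesn2, a leucine sensor that restrains mTORC1, and Eif4ebp1, a repressor of cap-dependent translation, rose in Rosa26 cells by 0.52 and 0.66. In the knockout their responses were -0.07 and -0.12, neither past the threshold, and the differences were -0.60 ± 0.129 and -0.78 ± 0.135 (adjusted p = 0.00752 and 0.00144).

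Ddit3, which encodes the pro-apoptotic factor CHOP, began higher in the knockout, at 13.9, 10.2 and 9.61 CPM against 5.46, 9.21 and 5.16 CPM, and rose in both genotypes, to 36.5, 30.4 and 40 CPM in the knockout and 41.4, 53.8 and 39 CPM in Rosa26. Its difference of -1.09 ± 0.298 (adjusted p = 0.0367) was lost in 8 of the 12 fits that left out 1 library, at an adjusted p of 0.0546 to 0.111. These were the fits without replicate 1 or 2 of either Atf4 knockout group, replicate 1 or 2 of Rosa26 with the drug, and replicate 1 or 3 of untreated Rosa26. Stc2, which encodes a secreted glycoprotein, was -0.91 ± 0.235 (adjusted p = 0.024) and was lost in 5 such fits, at 0.0537 to 0.0768: replicate 1 of the untreated and of the treated knockout, replicate 1 of treated Rosa26, and replicates 2 and 3 of untreated Rosa26. Chac1, a glutathione-degrading enzyme, had the letters TGATGCAA in the stretch shown above and values of 3.24, 3.29 and 3.76 (untreated) and 7.26, 8.63 and 8.65 (treated) CPM in Rosa26 against 2.34, 1.9 and 1.46 (untreated) and 1.84, 2.06 and 1.67 (treated) CPM in the knockout. Its levels in the treated groups did not overlap, but the difference of -1.29 ± 0.397 had an adjusted p of 0.0603. It passed in 5 of 23 alternatives: DESeq2, limma voom, the 12 libraries alone and both fits without the libraries that stood apart (0.0198 to 0.164 over all 23). Atf3, another stress-induced bZIP factor, was 0.19 ± 0.49 (adjusted p = 0.878). Without the 3 libraries that stood apart, 11 members of the list were lower.

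Enzymes of asparagine, proline, alanine and glutamate metabolism had 5 of 16 measured members with a lower response (Asns, Gpt2, Bcat1, Aldh18a1 and Got1) and none with a higher one, and the 5 passed in each fit that left out 1 library. The median of the list was -0.12. Asns, which makes asparagine from aspartate and glutamine, stood at 40.5, 44 and 44.3 CPM in untreated Rosa26 libraries and 84.5, 94.8 and 81.3 CPM with halofuginone. In the knockout Asns stood at 20, 23.2 and 20.8 CPM without and 21.8, 19.3 and 23.4 CPM with the drug. Untreated, the knockout against Rosa26 was -1.01 (adjusted p = 2.67e-07), and the response of Asns in the knockout was 0.01 (adjusted p = 0.928) against a rise of 1.01 in Rosa26, a difference of -1.0 ± 0.123 (adjusted p = 5.64e-05). Gpt2, the mitochondrial alanine aminotransferase, rose from 10.7, 10.6 and 9.2 to 49, 52.8 and 47.9 CPM in Rosa26 and from 5.48, 5.54 and 6.56 to 12, 11.6 and 13.1 CPM in the knockout (-1.23 ± 0.184, adjusted p = 0.00049). The treated knockout libraries were just above the untreated Rosa26 libraries.

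Bcat1, the cytosolic branched-chain aminotransferase, fell in the knockout and did not pass the threshold in Rosa26. It stood at 70.7, 71.3 and 65.4 (untreated) and 67.1, 64 and 62.9 (treated) CPM in Rosa26 without and with halofuginone, and at 45.8, 43.6 and 50 (untreated) and 27.3, 25.6 and 27.1 (treated) CPM in the knockout (-0.71 ± 0.104, adjusted p = 0.000426). Aldh18a1, which begins proline synthesis from glutamate, rose by 0.49 in Rosa26 and was -0.05 in the knockout (-0.54 ± 0.0964, adjusted p = 0.00187). Got1, the cytosolic aspartate aminotransferase whose promoter stretch is shown above, fell in both genotypes, from 86.8, 94.9 and 88.8 to 70.7, 75.7 and 65.8 CPM in Rosa26 and from 64.3, 63 and 63.4 to 34.1, 38.1 and 37.9 CPM in the knockout. The fall was the larger in the knockout (-0.44 ± 0.0986, adjusted p = 0.0095).

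**Figure D2:**
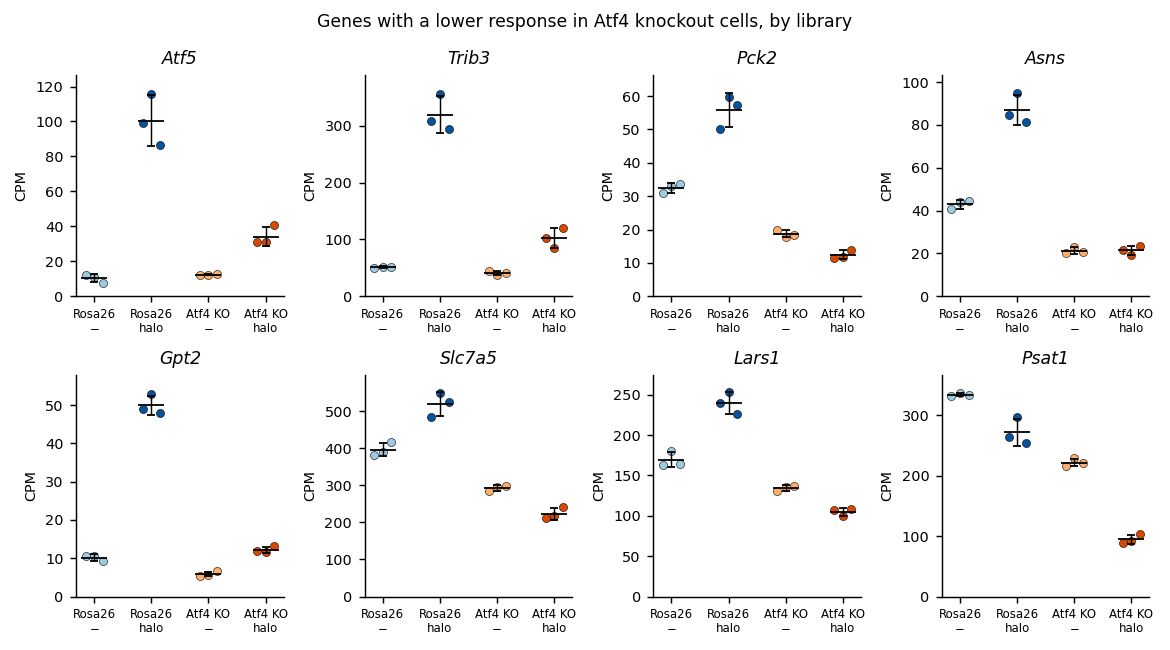
CPM of 8 genes with a lower response in Atf4 knockout cells in each of the 12 libraries (points; the bar is the mean and the whiskers the SD of 3 libraries), untreated (-) or with halofuginone (halo). Asns and Gpt2 in the treated knockout lie far under the treated Rosa26 libraries, and Pck2, Slc7a5 and Lars1 rose in Rosa26 and fell in the knockout.

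Serine synthesis and folate enzymes, which make serine and glycine and pass 1-carbon units to nucleotide synthesis, differed from the enzymes above in that halofuginone did not raise them in Rosa26. Of 18 measured members 5 had a lower response (Psat1, Mthfd2, Shmt2, Mthfd1l and Mthfd1), each in every fit that left out 1 library, and the median of the list was -0.26. Psat1, an aminotransferase of serine synthesis, stood at 332, 337 and 335 CPM in untreated and 264, 297 and 255 CPM in treated Rosa26 libraries. In the knockout Psat1 stood at 216, 229 and 221 CPM and, with the drug, 89.3, 91.6 and 104 CPM. The 4 groups did not overlap, and Psat1 fell in both genotypes, by 0.30 in Rosa26 and by 1.23 in the knockout (-0.93 ± 0.094, adjusted p = 9.18e-06). Mthfd2, a mitochondrial folate dehydrogenase, stood at 157, 167 and 165 (untreated) and 172, 183 and 168 (treated) CPM in Rosa26 against 109, 118 and 116 (untreated) and 72.2, 68.4 and 75.2 (treated) CPM in the knockout (-0.77 ± 0.0797, adjusted p = 9.86e-06). Its Rosa26 response was 0.10 (adjusted p = 0.158), so the difference lay mostly in the fall by 0.67 in the knockout.

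Shmt2 and Mthfd1l, the mitochondrial enzymes on either side of Mthfd2 in the folate cycle, followed the same course. Their Rosa26 responses were 0.02 and -0.02, neither past the threshold, and they fell by 0.64 and 0.68 in the knockout (differences -0.66 ± 0.124 and -0.66 ± 0.0865, adjusted p = 0.00261 and 0.00012). Phgdh, which begins serine synthesis, did not pass: it stood at 670.3, 669 and 635 (untreated) and 495, 589 and 483 (treated) CPM in Rosa26 and at 383, 402 and 361 (untreated) and 237, 218 and 308 (treated) CPM in the knockout, with a difference of -0.25 ± 0.145 (adjusted p = 0.356). It passed in 4 of 23 alternatives (0.00077 to 0.54 over all), among them the fit without Atf4 knockout replicate 3 with halofuginone, the highest of its group. Without that library 8 members of the list were lower, and 9 without all 3 libraries that stood apart.

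Amino acid transporters had 7 of 15 measured members with a lower response and none with a higher one, and their median was -0.37. Slc7a5, the light chain of the large neutral amino acid transporter LAT1, stood at 383, 389 and 417 CPM in untreated Rosa26 libraries and 483, 549 and 524 CPM with halofuginone. In the knockout it stood at 284, 295 and 298 CPM and 211, 217 and 242 CPM. All 4 groups were apart, with a rise of 0.39 in Rosa26 and a fall by 0.39 in the knockout (-0.78 ± 0.101, adjusted p = 0.000107). Slc7a1, a carrier of arginine and lysine, had the same form, at 247, 233 and 257 (untreated) and 278, 299.99 and 293 (treated) CPM in Rosa26 and 187, 205 and 215 (untreated) and 173, 167 and 174 (treated) CPM in the knockout (-0.48 ± 0.0886, adjusted p = 0.00251).

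Slc6a9, the glycine transporter GlyT1, had the largest difference of the transporters that passed. It rose from 2.1, 2.87 and 2.24 to 29.3, 28.4 and 31.6 CPM in Rosa26 and from 1.48, 1.1 and 1.26 to 5.83, 4.62 and 7.99 CPM in the knockout (-1.36 ± 0.277, adjusted p = 0.00483). The glutamine carriers Slc1a5 and Slc38a2 were lower by less, at -0.41 ± 0.0844 and -0.35 ± 0.0796 (adjusted p = 0.00561 and 0.0114), and Slc38a2 still rose by 0.59 in the knockout. The other two calls depended on single libraries. Slc3a2, the heavy chain that partners Slc7a5, was -0.50 ± 0.141 (adjusted p = 0.0393) and was lost in 9 of 12 fits that left out 1 library (0.0502 to 0.1). Those that kept it were the fits without Rosa26 replicates 2 and 3 or Atf4 knockout replicate 3, all with the drug. Slc1a4, a carrier of alanine, serine and cysteine, was -0.71 ± 0.186 (adjusted p = 0.0251) and was lost without replicate 1 of the treated knockout, replicates 1 and 2 of the untreated knockout or replicate 3 of untreated Rosa26 (0.0621 to 0.106).

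Cytosolic aminoacyl-tRNA synthetases, which charge tRNAs for translation, had the largest share of members with a lower response, 11 of 19 measured, and none with a higher one, with a median of -0.40. The mitochondrial synthetases, encoded by separate genes for nearly all amino acids, had 1 of 17 (Vars2; 5.88%, near the 4.01% of all genes) and a median of -0.19. The counts were 3 and, for the cytosolic ones, 14 without the 3 libraries that stood apart. Lars1, the leucyl synthetase, stood at 164, 180.4 and 164 CPM in untreated Rosa26 libraries and 239, 254 and 227 CPM with halofuginone. In the knockout it stood at 130.5, 136 and 137 CPM without and 107, 99.4 and 108 CPM with the drug. The groups did not overlap, and the 0.50 rise in Rosa26 met a fall by 0.36 in the knockout (-0.86 ± 0.0799, adjusted p = 2.79e-06). Eprs1, which charges both glutamate and proline and holds the enzyme that halofuginone blocks, rose in Rosa26 from 343, 357 and 346 to 565, 611 and 538 CPM. In the knockout Eprs1 went from 289, 293 and 303 to 309.8, 296 and 330.4 CPM, a response of 0.08 (adjusted p = 0.3), and the difference was -0.63 ± 0.0865 (adjusted p = 0.000184).

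Nars1, the asparaginyl synthetase, was -0.61 ± 0.0909 (adjusted p = 0.000449), with 248, 258 and 252 (untreated) and 295, 346 and 294 (treated) CPM in Rosa26 and 174, 181 and 175 (untreated) and 139, 138 and 149.7 (treated) CPM in the knockout. Aars1, the alanyl synthetase whose promoter stretch is shown above, rose in both genotypes, to 455, 479.7 and 426 CPM from 191, 191 and 202 CPM in Rosa26 and to 219, 215 and 249 CPM from 134, 136 and 143 CPM in the knockout (-0.49 ± 0.0894, adjusted p = 0.00203). Sars1, Cars1 and Yars1 also rose in Rosa26, by 0.81, 0.52 and 0.68, and their differences were -0.61 ± 0.117, -0.44 ± 0.0777 and -0.45 ± 0.0749. Gars1 and Mars1 did not pass the threshold in Rosa26, at 0.09 and 0.08, and fell by 0.41 and 0.47 in the knockout. Wars1 and Tars1 completed the 11, at -0.40 ± 0.112 and -0.31 ± 0.0829. They were lost in 7 and 5 of the 12 fits that left out 1 library (0.0574 to 0.103 and 0.0575 to 0.084), among them for both those without replicate 1 of the treated knockout, replicates 2 and 3 of the untreated knockout or replicate 3 of untreated Rosa26. Tars1 was also lost without replicate 2 of treated Rosa26, and Wars1 without replicate 1 of treated or replicate 1 or 2 of untreated Rosa26. Vars2, the mitochondrial valyl synthetase, was -0.34 ± 0.0969 (adjusted p = 0.0427) and was kept only without Rosa26 replicate 2 with the drug or replicate 3 without it.

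Genes of glutathione, thioredoxin and transsulfuration, which buffer oxidants and make cysteine, had 5 of 16 measured members with a lower response and none with a higher one, with a median of -0.30. Nqo1, a quinone reductase, stood at 14.4, 13.7 and 13.9 CPM in untreated Rosa26 libraries and 17.2, 22.4 and 17.3 CPM with halofuginone. In the knockout it stood at 11.7, 8.6 and 11.8 CPM and, with the drug, 4.42, 4.81 and 7.28 CPM. It rose by 0.44 in Rosa26 and fell by 0.95 in the knockout, and the treated groups were well apart (-1.39 ± 0.22, adjusted p = 0.000796). Txnrd1, the cytosolic thioredoxin reductase, fell in both, from 425, 450.5 and 427 to 331, 348 and 318 CPM in Rosa26 and from 320.4, 322 and 314 to 164, 174 and 184 CPM in the knockout (-0.49 ± 0.0771, adjusted p = 0.000773). Gclc, the catalytic subunit of glutathione synthesis, was -0.42 ± 0.0818 (adjusted p = 0.00362), with a rise in Rosa26 and a fall in the knockout. Srxn1 and Hmox1, antioxidant enzymes at no more than 6.95 CPM, were -1.25 ± 0.327 and -1.20 ± 0.336 and were lost in 6 and 10 of the 12 fits that left out 1 library (0.0538 to 0.0687 and 0.0503 to 0.107). Hmox1 was kept without replicate 3 of the treated knockout or replicate 2 of untreated Rosa26, and Srxn1 without replicate 2 or 3 of the treated or 1 of the untreated knockout, replicate 1 or 3 of treated or 3 of untreated Rosa26. The list held 3 lower members without replicate 1 of the treated knockout, replicate 2 or 3 of the untreated knockout, replicate 2 of treated Rosa26 or replicate 1 of untreated Rosa26. It held 9 without the 3 libraries that stood apart.

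Cyb5r1, a membrane-bound cytochrome b5 reductase outside the lists, was induced in Rosa26. It stood at 28.6, 27.9 and 27.9 CPM in untreated Rosa26 libraries and 78.9, 77.6 and 74.4 CPM with halofuginone. In the knockout it stood at 27.5, 24.8 and 26.6 CPM without and 31.1, 25.3 and 27.1 CPM with the drug. The untreated levels did not differ past the threshold, and Rosa26 rose while the knockout response was 0.08 (-1.37 ± 0.116, adjusted p = 1.29e-06). Of mitochondrial proteases and chaperones, 2 of 15 measured members were lower (13.3%, against 4.01% of all genes). These were the matrix protease Lonp1 (-0.68 ± 0.0795, adjusted p = 3.72e-05) and the matrix chaperone Hspa9 (-0.60 ± 0.099, adjusted p = 0.00108). Lonp1 stood at 186, 184 and 180.3 (untreated) and 236, 249 and 224 (treated) CPM in Rosa26 against 148, 148 and 145 (untreated) and 117, 113 and 126 (treated) CPM in the knockout. Without the 3 libraries that stood apart 4 members were lower.

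DNA replication genes had 13 of 25 measured members with a lower response and none with a higher one, with a median of -0.38. Halofuginone lowered all 13 in both genotypes, and the fall was the larger in the knockout. Pole, the catalytic subunit of the leading-strand polymerase, stood at 209, 213 and 213 CPM in untreated Rosa26 and 193, 203 and 213 CPM in untreated knockout libraries, which overlapped. With the drug it stood at 164, 149 and 162 CPM in Rosa26 and 88.4, 100.1 and 89.7 CPM in the knockout, which did not (-0.71 ± 0.0997, adjusted p = 0.000247). Pola1, the polymerase that extends primers, went from 133, 119.6 and 129 to 80.2, 84.4 and 78.1 CPM in Rosa26 and from 109, 115 and 113 to 47.6, 52.2 and 51.8 CPM in the knockout (-0.50 ± 0.0818, adjusted p = 0.00103). Pold1, the lagging-strand polymerase, went from 252, 255 and 254 to 149, 161 and 151 CPM and from 215, 224 and 215 to 87.4, 85.1 and 102 CPM (-0.53 ± 0.0873, adjusted p = 0.00111). The other calls were the licensing and helicase genes Orc1, Cdc6, Cdc45, Mcm2, Mcm4, Mcm5, Mcm6 and Mcm10, the primase Prim1 and the ligase Lig1, between -0.60 (Orc1) and -0.37 (Mcm10). Mcm2, Mcm4, Mcm5, Mcm6 and Cdc45 were each lost in 1 to 9 of the 12 fits that left out 1 library, so 8 of the 13 passed in all of them.

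Nucleotide synthesis enzymes had 4 of 21 measured members lower (19%, against 4.01% of all genes) and none higher. Tk1, the thymidine kinase of S phase, went from 156, 161 and 156 to 65.8, 76.1 and 67.8 CPM in Rosa26 and from 116, 105 and 104 to 26.7, 27.6 and 34.8 CPM in the knockout (-0.69 ± 0.116, adjusted p = 0.00115). The others were the ribonucleotide reductase subunits Rrm1 and Rrm2 and the purine enzyme Pfas, at -0.45 ± 0.107, -0.34 ± 0.0949 and -0.36 ± 0.0762, of which Rrm2 was lost in 8 of the 12 fits that left out 1 library (0.0589 to 0.093) and kept without replicate 3 of the treated knockout, replicate 1 or 3 of treated or replicate 2 of untreated Rosa26. The count was 7 without Atf4 knockout replicate 3 with halofuginone and 10 without the 3 libraries that stood apart. Of 22 mitosis genes 2 were lower (Tpx2 and Plk1, the latter lost in 10 of the 12 fits, 0.0579 to 0.0981) and 1 higher. These calls are 13.6% of the list, against 6.42% of all genes in either direction. Leaving out the 3 libraries that stood apart gave 9 lower mitosis genes. The higher one was Cenpa, the centromeric histone, which fell from 292, 268 and 281 to 73.9, 74.7 and 76.9 CPM in Rosa26 and from 175, 173 and 175 to 59.8, 62.7 and 73.1 CPM in the knockout (0.48 ± 0.0887, adjusted p = 0.00242). The untreated knockout against Rosa26 was -0.69, and the treated levels came closer to each other. Mki67, a marker of cycling cells, fell by 1.60 and 1.70, a difference of -0.10 ± 0.0993 (adjusted p = 0.657).

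Genes of lipid metabolism were among those with the largest differences in the other direction. Fatty acid synthesis and desaturation had 4 of 13 measured members with a higher response (Scd1, Scd2, Acsl3 and Srebf1) and none with a lower one, the 4 in each fit that left out 1 library, and a median of 0.11. Scd2, a desaturase that makes monounsaturated fatty acids, stood at 392, 404 and 405 CPM in untreated Rosa26 libraries and 225, 266 and 243 CPM with halofuginone. In the knockout it stood at 227, 232 and 233 CPM without and 374, 365 and 425 CPM with the drug. It fell by 0.71 in Rosa26 and rose by 0.75 in the knockout, so that the genotype with the higher level changed with the drug (1.46 ± 0.101, adjusted p = 1.1e-07). No other gene named here had a smaller p.

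Scd1, a related desaturase, and Acsl3, an acyl-CoA synthetase, differed in another way. Scd1 stood at 8.29, 8.43 and 8.87 (untreated) and 0.726, 1.24 and 1.18 (treated) CPM in Rosa26 and at 2.34, 1.96 and 1.99 (untreated) and 1.35, 1.37 and 0.895 (treated) CPM in the knockout (2.23 ± 0.434, adjusted p = 0.00354). The treated groups of Scd1 overlapped, and the difference lay in the untreated cells, where the knockout against Rosa26 was -2.02. Acsl3 likewise stood at 14.9, 11.9 and 15.4 (untreated) and 4.16, 3.91 and 2.93 (treated) CPM in Rosa26 and at 5.73, 8.2 and 5.9 (untreated) and 4.61, 3.99 and 5.79 (treated) CPM in the knockout (1.47 ± 0.305, adjusted p = 0.00561). Srebf1, the transcription factor of fatty acid synthesis, fell from 154, 148 and 144 to 83.1, 85.9 and 82.6 CPM and from 105, 106 and 107 to 82.4, 73.7 and 89 CPM, with overlapping treated groups (0.45 ± 0.0891, adjusted p = 0.00411).

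Cholesterol synthesis genes had a median halofuginone response of -1.09 in Rosa26 and -0.965 in the knockout. The difference of responses was higher in 2 of 24 (Insig1 and Sc5d) and lower in 2, with a median of 0.10. These calls are 16.7% of the list, against 6.42% of all genes in either direction. Insig1, which holds the sterol-regulated factor SREBP in the ER, fell from 95.4, 96.6 and 96.9 to 30, 30.6 and 29.9 CPM in Rosa26 and from 40.2, 44 and 45.2 to 21.7, 24.7 and 25.1 CPM in the knockout (0.82 ± 0.132, adjusted p = 0.000929). It began lower in the knockout and remained lower with the drug. Of these 4, 2 (Insig1 and Sc5d) passed in each fit that left out 1 library. The number of higher members was 4 without Atf4 knockout replicate 3, 6 without Rosa26 replicate 2, both with the drug, and 5 without the 3 libraries that stood apart. Hmgcs1, the enzyme that makes HMG-CoA, was 0.32 ± 0.101 (adjusted p = 0.0641). It passed in 10 of 23 alternatives (0.00116 to 0.167 over all), among them median-ratio and upper-quartile scaling, DESeq2 and the fits without replicate 2 or 3 of the treated knockout, replicate 2 of treated Rosa26 or all libraries that stood apart.

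The list named sterol export genes had 3 of 6 measured members with a higher response and the highest list median, 0.63. The 3 are targets of the oxysterol receptor LXR, and Mylip among them is not itself an exporter. Halofuginone raised all 3 in both genotypes. Abcg1, a sterol exporter, rose from 20.3, 23.7 and 23.4 to 52, 51.4 and 48.2 CPM in Rosa26 and from 33.5, 31.6 and 25.8 to 102, 101 and 108 CPM in the knockout (0.60 ± 0.126, adjusted p = 0.0058). Mylip, which encodes the sterol-induced ubiquitin ligase IDOL, rose from 8.95, 7.6 and 7.86 to 13.9, 17.5 and 14.3 CPM and from 7.89, 9.64 and 6.69 to 31.2, 26.2 and 27.1 CPM (0.89 ± 0.177, adjusted p = 0.00408). For both, each treated knockout library was above each treated Rosa26 library; untreated levels of Mylip overlapped, and Abcg1 was 0.43 in the untreated knockout against Rosa26. Abca1, the exporter to lipid-poor lipoproteins, rose from 0.6, 1.56 and 1.23 to 3.58, 4.72 and 5.73 CPM and from 1.54, 0.75 and 1.19 to 12.4, 13.7 and 16.4 CPM. Its difference of 1.58 ± 0.419 (adjusted p = 0.0275) was lost without replicate 2 or 3 of the untreated knockout, replicate 1 of treated Rosa26 or replicate 2 or 3 of untreated Rosa26 (0.0569 to 0.123).

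**Figure D3:**
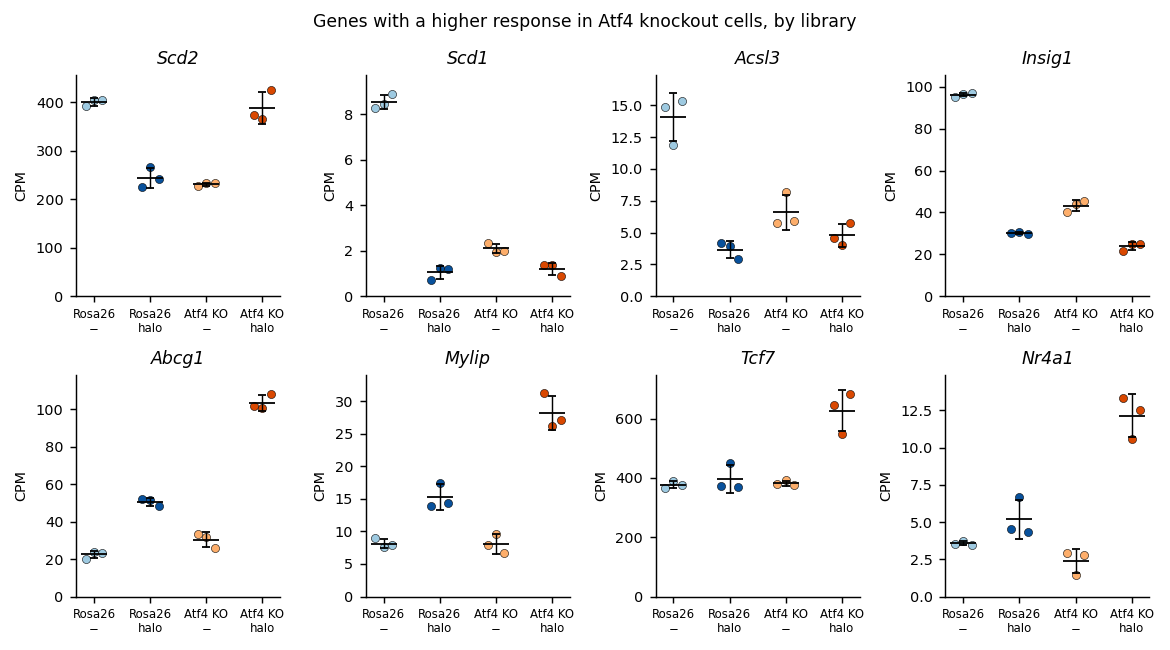
CPM of 8 genes with a higher response in Atf4 knockout cells in each of the 12 libraries (points; the bar is the mean and the whiskers the SD of 3 libraries), untreated (-) or with halofuginone (halo). Abcg1, Mylip, Tcf7 and Nr4a1 are highest in the treated knockout, whereas Scd1, Acsl3 and Insig1 differ mainly in the untreated cells.

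Genes of T cell state passed singly. Of 20 naive and memory CD8 genes only Tcf7, which encodes the factor TCF-1 of naive and memory cells, had a higher response (5% of the list against 2.41% of all genes). It stood at 365, 389 and 376 CPM in untreated and 371, 452 and 369.8 CPM in treated Rosa26 libraries. In the knockout it stood at 378, 393 and 376 CPM without and 645, 549.8 and 684 CPM with halofuginone. The other groups overlapped and the treated knockout was above them all (0.63 ± 0.117, adjusted p = 0.0023). Il7r and Klf2, genes of the same list, rose in both genotypes, and their differences of -0.21 and -0.15 did not pass (adjusted p = 0.297 and 0.691). The list held 4 higher members without Atf4 knockout replicate 3 with the drug, and 4 higher and 4 lower without the 3 libraries that stood apart.

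Nr4a1 and Nr4a3, nuclear receptors induced by T cell receptor signals and linked to exhaustion, were the 2 of 13 inhibitory receptor and exhaustion genes with a higher response (15.4%, against 2.41% of all genes). Nr4a1 stood at 3.54, 3.71 and 3.48 (untreated) and 4.5, 6.71 and 4.36 (treated) CPM in Rosa26 and at 2.9, 1.44 and 2.78 (untreated) and 13.3, 10.5 and 12.5 (treated) CPM in the knockout (1.83 ± 0.368, adjusted p = 0.00458). Nr4a3 stood at 5.4, 5.74 and 4.43 (untreated) and 7.07, 8.07 and 7.66 (treated) CPM against 4.56, 3.29 and 5.03 (untreated) and 11.1, 12.6 and 12.9 (treated) CPM (0.96 ± 0.225, adjusted p = 0.013). Both were highest in the treated knockout, without overlap. Of 20 effector genes, Tnf, an inflammatory cytokine, was lower (-0.60 ± 0.122, adjusted p = 0.00452), at 50.7, 52 and 51.5 (untreated) and 49.2, 58.2 and 48.8 (treated) CPM in Rosa26 and 50.9, 48.1 and 44.7 (untreated) and 30.5, 28.3 and 36.9 (treated) CPM in the knockout. Batf, an AP-1 factor of effector cells, was higher (0.65 ± 0.155, adjusted p = 0.0149), since it fell by 0.84 in Rosa26 and began lower in the knockout. These 2 of 20 are 10% of the list against 6.42% of all genes, and 3 effector genes were lower without the 3 libraries that stood apart. Gzmb, the cytotoxic protease granzyme B, was -0.13 ± 0.113 (adjusted p = 0.582), at 1302, 1273 and 1272 (untreated) and 1001, 1113 and 979 (treated) CPM in Rosa26 and 1076, 1095 and 1106 (untreated) and 730.5, 756 and 920.4 (treated) CPM in the knockout. It passed in 3 of 23 alternatives (0.0242 to 0.816 over all), limma voom and both fits without the libraries that stood apart.

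Of 17 p53 targets 3 were lower (Plk2, Cdkn1a and Zmat3) and 1 higher (Pmaip1). Calls in either direction were 23.5% of the list, against 6.42% of all genes. Cdkn1a, the cell cycle inhibitor p21, stood at 31.2, 32.8 and 33.4 (untreated) and 57.2, 65.4 and 52.1 (treated) CPM in Rosa26 and at 49.3, 48.5 and 47.6 (untreated) and 52.3, 55.2 and 62.9 (treated) CPM in the knockout (-0.61 ± 0.121, adjusted p = 0.00402). Zmat3, an RNA-binding protein, stood at 42.5, 46.5 and 43.5 (untreated) and 72.3, 68.9 and 72.5 (treated) CPM against 73.8, 84.7 and 87.3 (untreated) and 96.9, 93.4 and 91.9 (treated) CPM (-0.49 ± 0.09, adjusted p = 0.0023). Both were already higher in the untreated knockout, by 0.58 and 0.89, so their lower response began from a higher level. Pmaip1, which encodes the BH3-only protein NOXA, was 0.49 ± 0.124 and was lost without replicate 1 of the treated or untreated knockout, replicate 1 or 3 of treated or 2 of untreated Rosa26 (0.0524 to 0.0672). Without the 3 libraries that stood apart 6 members were lower.

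Glycolysis had 3 of 19 measured members higher (Pfkfb3, Slc2a3 and Pdk1) and 1 lower (Pfkp). Together they are 21.1% of the list, against 6.42% of all genes in either direction. Pfkfb3, which makes an activator of phosphofructokinase, stood at 50.1, 51.5 and 54.2 (untreated) and 48, 53.2 and 46.7 (treated) CPM in Rosa26 and 41.2, 49.6 and 46.5 (untreated) and 72, 59.9 and 71.8 (treated) CPM in the knockout (0.64 ± 0.117, adjusted p = 0.0021). Slc2a3, the glucose transporter GLUT3, was 0.42 ± 0.0988 (adjusted p = 0.0136). Pdk1 was lost in 9 of the 12 fits that left out 1 library (0.05 to 0.0937), and Pfkp without Atf4 knockout replicate 3 with the drug (0.0506). There were 4 lower glycolysis genes without the 3 libraries that stood apart. Of 19 genes of ER chaperones and ER-associated degradation 2 were lower (Xbp1 and Sdf2l1) and 1 higher (Dnajc3), of which Sdf2l1 was lost in 10 and Dnajc3 in 6 such fits (0.0518 to 0.0983 and 0.0727 to 0.0921). Calls in either direction were 15.8% of these ER genes, against 6.42% of all genes. As many as 4 were lower without the 3 libraries that stood apart. Xbp1, the factor of the unfolded protein response, fell from 268, 251 and 271 to 192, 228 and 215 CPM in Rosa26 and from 221, 217 and 219 to 95.6, 103 and 134 CPM in the knockout (-0.66 ± 0.129, adjusted p = 0.00382). Of 27 interferon response genes 1 (3.7%, against 4.01% of all genes) was lower. This was Xaf1, at -0.79 ± 0.205 (adjusted p = 0.0255), and 7 of the 12 fits that left out 1 library lost it (0.0502 to 0.071). It was kept without replicate 2 of the treated, 1 or 2 of the untreated knockout, or replicate 2 or 3 of treated Rosa26. The list held 2 lower members without replicate 2 of the treated knockout and without the 3 libraries that stood apart.

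No member passed in either direction among 26 oxidative phosphorylation, 76 ribosomal protein, 25 autophagy and lysosome, 10 polyamine and 5 Txnip and arrestin-domain genes and 10 mitochondrially encoded mRNAs. The ribosomal protein genes nevertheless had a median of -0.21. Rps2, the member with the smallest p, was -0.53 ± 0.179 (adjusted p = 0.0898), at 3013, 3348 and 3001 (untreated) and 2588, 3356 and 2458 (treated) CPM in Rosa26 and 3210.5, 3119.5 and 2883 (untreated) and 1824, 1652 and 2266 (treated) CPM in the knockout. It passed in 6 of 23 alternatives (8.48e-06 to 0.184 over all). Of these 76 genes, 10 were lower without Atf4 knockout replicate 3 with halofuginone and 21 without the 3 libraries that stood apart. The same omissions gave 5 and 6 lower mitochondrially encoded mRNAs and 3 and 4 lower oxidative phosphorylation genes. In the fit without the 3 libraries that stood apart, 5 autophagy and lysosome genes were lower and 1 higher, and 2 polyamine genes were higher, as they were without Rosa26 replicate 2 with the drug, so no statement that these groups responded alike can be made. Reads of ribosomal protein genes may be shared with their pseudogenes.

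**Figure D4:**
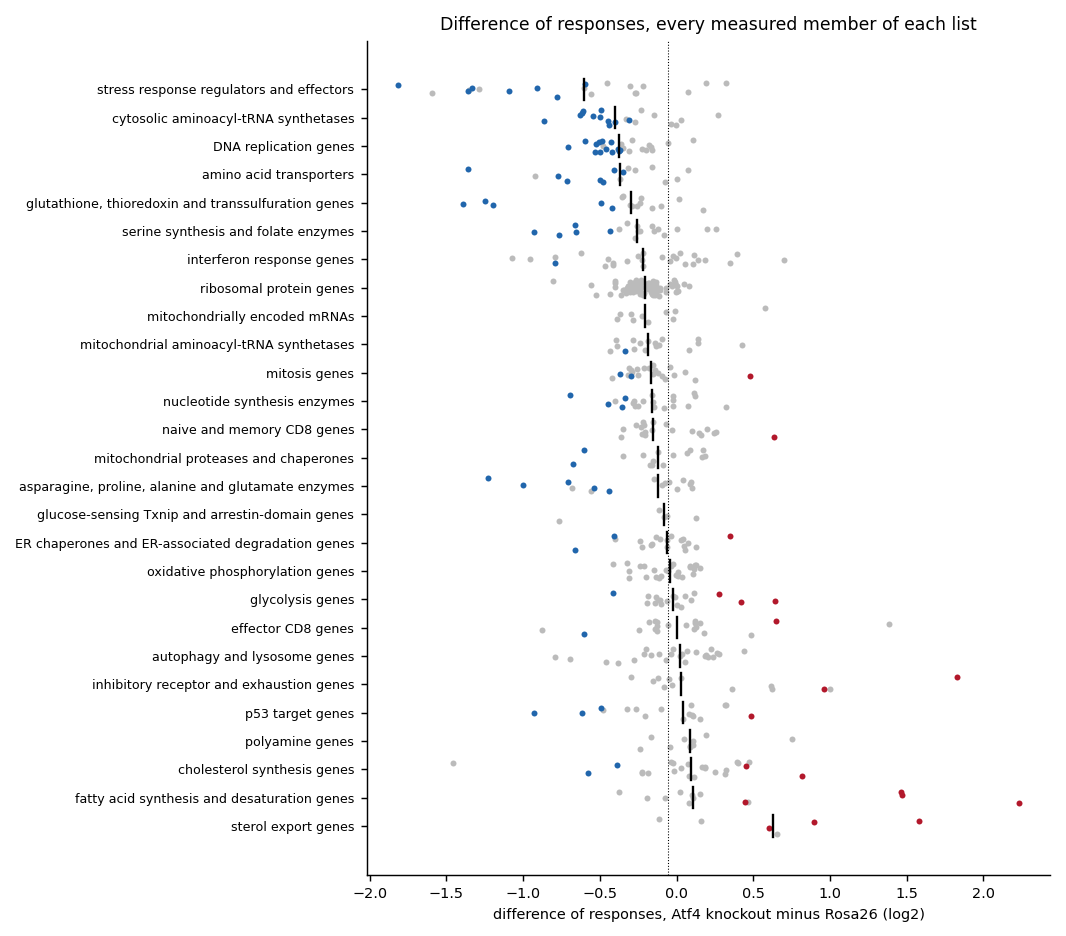
The difference of responses (log2, x axis) of each measured member of each gene list (1 point per gene; blue lower and red higher at an adjusted p under 0.05, grey not past it), with the list's median as a black bar and the median of all genes (-0.06) as a dotted line. Lists are in order of their median, from -0.60 for stress response regulators and effectors to 0.63 for sterol export genes.

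Some of the largest differences lay outside these lists. Angptl6, a secreted angiopoietin-like protein, rose from 3.48, 3.83 and 3.31 to 32.4, 36.1 and 34.5 CPM in Rosa26 and from 4.31, 3.69 and 3.97 to 11.5, 11.2 and 13.3 CPM in the knockout (-1.69 ± 0.197, adjusted p = 3.69e-05). Gbp11, annotated as a polymorphic pseudogene of the interferon-inducible GTPase family, rose from 5.28, 5.32 and 5.84 to 167, 123 and 129.7 CPM and from 9.31, 8.31 and 14.4 to 70.8, 81 and 65.1 CPM (-1.90 ± 0.256, adjusted p = 0.000309), and its reads may be shared with near-identical copies. Both were induced in both genotypes, with all treated knockout libraries under all treated Rosa26 libraries. Lama5, a laminin chain, showed the other form: it rose from 3.96, 3.77 and 4.88 to 16.2, 15.7 and 15.8 CPM in Rosa26, while the knockout stood at 12.7, 13.4 and 13.6 CPM before and 15.9, 17 and 12.5 CPM after the drug (-1.72 ± 0.195, adjusted p = 2.52e-05). The treated groups overlapped, so the difference lay in a level that was already raised in the untreated knockout. Syt6, a synaptotagmin, and Dtx1, an E3 ligase of the Notch pathway, also began higher in the untreated knockout, but rose in both genotypes, by 4.03 and 2.47 in Rosa26 and 1.07 and 0.93 in the knockout, and their treated groups did not overlap. Syt6 stood at 0, 0.299 and 0.168 (untreated) and 1.99, 3.23 and 2.8 (treated) CPM in Rosa26 and 1.79, 3.75 and 2.85 (untreated) and 6.39, 6.12 and 5.19 (treated) CPM in the knockout, and its -2.95 ± 0.649 (adjusted p = 0.00847) leans on untreated Rosa26 libraries at or near 0. Dtx1 was -1.54 ± 0.346 (adjusted p = 0.00976).

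Directions were opposite in Ncs1, a neuronal calcium sensor, and Pde4c, a cAMP phosphodiesterase, as they were in Pck2, Nqo1 and Scd2. Ncs1 stood at 5.1, 4.61 and 6.51 (untreated) and 7.46, 6.02 and 8.34 (treated) CPM in Rosa26 and at 7.46, 8.37 and 6.96 (untreated) and 3.93, 2.62 and 3.94 (treated) CPM in the knockout (-1.54 ± 0.251, adjusted p = 0.000995). Pde4c stood at 3.84, 4.9 and 4.43 (untreated) and 8.91, 8.82 and 8.22 (treated) CPM against 9, 7.96 and 9.94 (untreated) and 6.63, 7.3 and 5.97 (treated) CPM (-1.41 ± 0.249, adjusted p = 0.00172). Ncs1 rose by 0.43 and Pde4c by 0.98 in Rosa26, and both fell in the knockout, by 1.12 and 0.43. These 5 were the largest of 64 such genes that passed in every fit leaving out 1 library, at 5 CPM or more in a group.

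Among genes with a higher response, Acoxl, an acyl-CoA oxidase-like gene, rose from 1.5, 0.897 and 1.12 to 4.02, 5.84 and 4.42 CPM in Rosa26 and from 0.739, 0.866 and 0.927 to 11.5, 11.2 and 12.8 CPM in the knockout (1.79 ± 0.378, adjusted p = 0.00646). Gadd45b, a stress-inducible gene of growth arrest, rose from 6.31, 8.43 and 6.57 to 11, 12.8 and 9.71 CPM and from 4.56, 4.5 and 4.9 to 15.8, 20.2 and 23.4 CPM (1.44 ± 0.242, adjusted p = 0.00119). Ankrd50, an ankyrin-repeat protein of endosomes, rose from 24.8, 25.3 and 31.7 to 63.3, 74.3 and 67 CPM and from 26.4, 23.9 and 26 to 124, 121 and 131 CPM (0.98 ± 0.124, adjusted p = 7.43e-05). In all 3 the treated knockout was above the treated Rosa26 libraries without overlap. Runx1, a transcription factor of T cell development, stood at 12.7, 13 and 12.3 (untreated) and 12.5, 11.5 and 10.3 (treated) CPM in Rosa26 and 7.7, 11.9 and 12.5 (untreated) and 22.1, 23.1 and 16.9 (treated) CPM in the knockout (1.09 ± 0.213, adjusted p = 0.00367). Cnr2, a cannabinoid receptor of immune cells, stood at 7.09, 5.02 and 5.5 (untreated) and 5.76, 7.89 and 6.04 (treated) CPM against 4.99, 5.25 and 4.77 (untreated) and 13.9, 13.9 and 13.7 (treated) CPM (1.31 ± 0.221, adjusted p = 0.00121). Neither passed a threshold in Rosa26, and both rose in the knockout. Dap, Serpinb6b and Kbtbd7 fell in Rosa26 and rose in the knockout, with differences of 1.03 ± 0.121, 1.20 ± 0.264 and 1.04 ± 0.215.

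Cox6a2, Sdc4 and Slfn5, which halofuginone induced from low levels in both genotypes, did not pass the threshold, whereas Acoxl, Syt6, Slc6a9 and Dtx1, also low before the drug in Rosa26, did. Cox6a2, a muscle form of a cytochrome c oxidase subunit, was at most 0.36 CPM in untreated libraries of either genotype, 5.04, 6.95 and 4.36 CPM in treated Rosa26 and 0.921, 1.31 and 1.25 CPM in the treated knockout. The treated levels did not overlap, but against untreated levels so near 0 the difference of -1.58 ± 0.907 had an adjusted p of 0.356. Sdc4, a syndecan, was at most 0.308 CPM untreated and 1.5, 2.42 and 2.49 CPM in treated Rosa26 against 8.11, 5.68 and 8.53 CPM in the treated knockout. Its difference was -0.02 (adjusted p = 0.969), positive with some other scalings, so its direction is not given. Slfn5, a Schlafen gene, was -0.63 ± 0.706 (adjusted p = 0.689).

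Markers of other blood cells were checked for the same libraries. Of the CD8 T cell markers, 10 of 10 were measured, and they summed to 4560 to 4630 CPM in untreated and 3960 to 4690 CPM in treated Rosa26, and to 4480 to 4670 and 3430 to 4300 CPM in Atf4 knockout libraries. Cd8a itself had a lower response, at 936, 943 and 961 (untreated) and 1072, 1169 and 1096 (treated) CPM in Rosa26 and 1136, 1139 and 1151 (untreated) and 949.5, 929.6 and 997 (treated) CPM in the knockout (-0.49 ± 0.0839, adjusted p = 0.00142). Without the 3 libraries that stood apart 5 CD8 markers were lower and 1 higher. The 5 of 7 CD4 T cell markers measured summed to 803 to 849 and 802 to 849 CPM in untreated and treated Rosa26 and to 595 to 664 and 622 to 657 CPM in the knockout. Most of each sum was Il2ra, at 775, 812 and 820 (untreated) and 713, 762 and 761 (treated) CPM in Rosa26. In the knockout Il2ra stood at 558, 606 and 622 (untreated) and 514, 535 and 534 (treated) CPM. Ikzf2 was instead higher in the knockout, at 22.1, 24.6 and 25.8 (untreated) and 89.3, 99.9 and 75.8 (treated) CPM. Its Rosa26 values were 16.2, 18.7 and 19.25 (untreated) and 52.8, 41.3 and 51.6 (treated) CPM. Foxp3, the factor of regulatory T cells, was -0.96 ± 0.21 (adjusted p = 0.00806), at 4.8, 4.73 and 4.94 (untreated) and 8.23, 7.33 and 8.22 (treated) CPM in Rosa26 and 11.3, 9.75 and 11.3 (untreated) and 8.35, 10.7 and 8.23 (treated) CPM in the knockout. Zbtb7b, the CD4 lineage factor, was -0.70 ± 0.196 (adjusted p = 0.0362) and was lost in 9 of the 12 fits that left out 1 library (0.0512 to 0.136), and kept without replicate 2 of the treated or 1 of the untreated knockout or replicate 2 of untreated Rosa26. When the 3 libraries that stood apart were left out, 1 CD4 marker was lower and 1 higher, and 1 NK cell marker was higher. In the fit of all libraries no B cell (6 of 12 measured), myeloid (3 of 14), NK cell (3 of 8) or erythroid and platelet marker (3 of 9) passed. The myeloid sum was 6.41 to 11.9 CPM over the 4 groups. The B cell sum was 397 to 499 CPM, most of it Ighm at 380 to 481 CPM. The NK cell sum, of Klrd1, Klrk1 and Eomes, was 134 to 145 and 157 to 194 CPM in untreated and treated Rosa26 and 98 to 107 and 199 to 263 CPM in the knockout. Its members moved apart, as Klrd1 and Klrk1 rose and Eomes fell with the drug in both genotypes. Eomes went from 82.6, 85.4 and 86.1 to 32.6, 31.5 and 25.2 CPM in Rosa26. In the knockout Eomes went from 50.7, 46.7 and 55.1 to 17.6, 17.7 and 16 CPM. The part of these marker sums in the results was not tested.

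The drug by Cebpg knockout interaction is the most similar comparison, but it shares its 6 Rosa26 libraries with that of Atf4, so both are given side by side and not correlated. Whether they differ was tested directly as the halofuginone response in Atf4 knockout minus that in Cebpg knockout cells, in which the Rosa26 libraries drop out. That test passed in 2 of 14695 genes (0.0136%), Scd2 and the predicted gene Gm17767, and 990 genes had an unadjusted p under 0.05. DESeq2 gave 53 genes, limma voom with sample weights 118, and the fit without the 3 libraries that stood apart 61, so the number depends on the method. Scd2 had a higher response without Atf4 than without Cebpg: its difference from Rosa26 was 1.46 with Atf4 and 0.81 with Cebpg knocked out, and the test of these values gave 0.65 (adjusted p = 0.0211). Scd2 stood at 283, 321 and 321 CPM in untreated and 324, 319.8 and 347 CPM in treated Cebpg knockout libraries. Gm17767 was -1.31 with Atf4 and -0.44 with Cebpg knocked out (adjusted p of the difference = 0.000733).

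Other genes had no difference between the knockouts past the threshold. Asns was -1.0 and -0.80, Psat1 -0.93 and -0.81, Lars1 -0.86 and -0.71, and Pck2 -1.36 and -1.30 with Atf4 and Cebpg knocked out. Trib3 was -1.33 and -2.04, and that difference of 0.71 had an adjusted p of 0.262. Cebpg mRNA itself rose less without Atf4, from 59.8, 58 and 58.8 to 132, 123 and 137 CPM against 52.8, 55.1 and 53 to 169, 183 and 167 CPM in Rosa26 (-0.54 ± 0.0864, adjusted p = 0.000872). Its difference in its own knockout was -0.86. A p that misses the threshold does not show that the knockouts act alike, and for Trib3 the SE of the difference was 0.158.

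**Figure D5:**
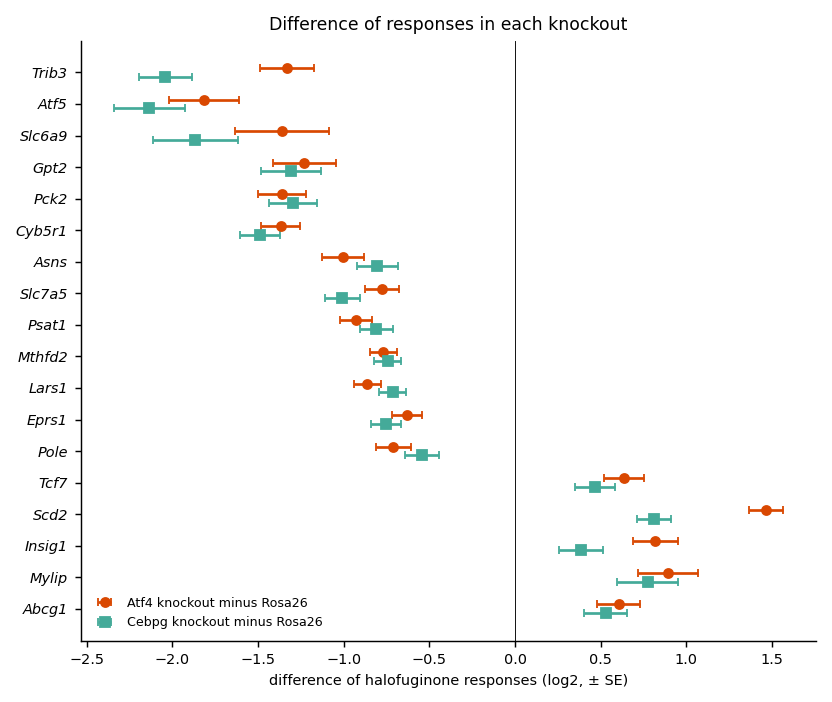
The difference of halofuginone responses from Rosa26 (log2, x axis, with SE) of 18 genes in Atf4 knockout (circles) and Cebpg knockout cells (squares), 3 libraries in each group. Both sets of values use the same Rosa26 libraries; of the genes shown, Scd2 is the one whose values in the knockouts differed past the threshold.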

How the data were processed

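Poly-A RNA of 18 libraries was counted per gene. The submitters' processing notes name FastQC, MultiQC, Trimmomatic, STAR, HTSeq and edgeR, with build GRCm39. Not given in the sources used here are tool versions and the strand setting, so overlapping genes on opposite strands may share reads. The authors deposited raw counts for each gene, and no column of samples was left unused (0). Of 449 blank names, 431 were filled from a gene annotation by identifier.

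All 18 libraries entered 1 edgeR 4.0.16 fit (R 4.3.3; limma 3.58.1), with TMM scaling, a robust prior, 12 residual degrees of freedom and a term for each of the 6 groups. A filter at a minimum count of 10 kept all 14695 genes. Calls are at an adjusted p (Benjamini-Hochberg) under 0.05; ± is the SE of the log2 value, and CPM were scaled with TMM. The procedure was tested on simulated data. Gene lists and members were chosen with earlier results of these data known. The text names the targeted genes, a panel, the 12 lowest and 12 highest differences that passed in every fit leaving out 1 library at 5 CPM or more, members of lists with the smallest p, and the 5 largest of opposite direction; other list members and Gm17767 were chosen after their values were seen. Alternatives were other scalings, DESeq2 1.42.0, limma voom, other filters and priors, the 12 libraries alone, a replicate block and left-out libraries. Replicate numbers did not pair the 4 groups of the difference and no block is used. The values of a few list members are not reported here.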

Additional observations from a re-analysis of the deposited data

Results flagged for a closer look

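A halofuginone response that differs between genotypes was the measure itself, and it passed in 943 genes. The genes that moved in opposite directions in Rosa26 and Atf4 knockout cells, with the largest differences among such genes, were Ncs1 (-1.544), Scd2 (1.464), Pde4c (-1.41), Nqo1 (-1.39) and Pck2 (-1.361), on the log2 scale and each tested as an interaction in edgeR. Between the knockouts, the halofuginone response in Atf4 knockout minus that in Cebpg knockout cells was 0.6521 for Scd2 and -0.8733 for Gm17767, a predicted gene. No group has 4 or more libraries, so single libraries were not tested for standing apart. Those called so above were picked without a threshold, as the lowest of each halofuginone group in unconfirmed transcripts and Malat1. Cebpg knockout replicate 3 held 0.151% and 1960 CPM there, above the untreated Rosa26 libraries. Fits without these libraries are thus a description and give no separate support to any call.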

How the results depend on the processing

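Of 60 named genes past the threshold, 55 kept direction and call in all alternatives run. Ddit3, Slc3a2, Abca1, Vars2 and Xaf1 lost the call in some. Of 15 named genes not past the threshold, 11 passed in some. The named lowest, highest and opposite-direction genes were chosen for passing in every fit with 1 library left out. Their keeping the call in those fits was thus fixed by the choice and is no test. Other named genes were list members with the smallest p. Of all 943 calls, 480 were kept in every fit with 1 library left out. The number of genes whose response differed (943) was 1508 with DESeq2, 2833 with limma voom and sample weights, 607 with the 12 libraries alone, and 650 to 1477 with 1 library left out, the highest being without Atf4 knockout replicate 3 (1477) and Rosa26 replicate 2 (1455), both with halofuginone. Without the 3 libraries that stood apart it was 2192, and 2193 in a fit on the remaining libraries of the contrast alone, an alternative added after seeing the data. Lower responses (589) were 1722 with voom, 380 with the 12 libraries alone, 404 to 699 with 1 library left out, and 1417 and 1421 without the libraries that stood apart. Higher responses (354) were 705 with median-ratio scaling, 896 with DESeq2, 1111 with voom, 801 with a filter at 1 CPM, 227 with the 12 libraries alone, 225 to 828 with 1 library left out, and 775 and 772 without the libraries that stood apart. Differences of at least 2-fold (82 lower, 22 higher) were 333 lower and 79 higher with voom, 34 higher with the filter, 235 and 211 lower without the libraries that stood apart, and 54 to 139 lower and 15 to 37 higher with 1 library left out. Genes that differed between the knockouts (2) were 11 with upper-quartile scaling, 53 with DESeq2, 118 with voom, 61 without the libraries that stood apart, and 1 to 4 with 1 library left out. The causes were not tested, beyond the fewer libraries or genes that some of these fits use. Sdc4, near 0 counts untreated, was -0.02 and turned to 0.03394 with median-ratio scaling, 0.3048 with voom, 0.04189 with the filter and, with 1 library left out, -0.8742 to 0.4987.

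Replicate numbers are shared across groups, but libraries of the 4 groups with the same number did not deviate together: 4 of 18 such pairs correlated above 0.1 (r from -0.687 to 0.363), and 9 of 45 over all 6 groups (highest 0.527), and 4 of 18 libraries correlated best with their own number. The treated Atf4 and Cebpg knockout groups were above 0.1 at every number, with 0.255, 0.246 and 0.527, the last between libraries that stood apart. Treated and untreated Rosa26 were at 0.0143, 0.224 and 0.181. The untreated groups of the knockouts were at -0.0536 to 0.0618, and with the replicate number as a block 2 genes differed between the knockouts. For the difference of responses with the replicate number as a block 783 genes passed, 493 lower and 290 higher. At 14.7 to 20.3 M counts, genes near 1 CPM can have large errors: the SE was 0.576 for Nupr1 and 0.907 for Cox6a2, whose differences were not detectable here.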
